A study of Homo sapiens with 4 samples.

Results

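Annexins and S100 proteins were followed through ribosome footprints and RNA counts in SNU-668, an established human gastric cancer line. The 10 genes described were taken by symbol from the deposited table: the 7 annexins ANXA1, ANXA2, ANXA4, ANXA5, ANXA6, ANXA7 and ANXA11, and the 3 S100 genes S100A6, S100A10 and S100A11, of 16692 genes listed. Each had exactly 1 row. The 4 libraries were footprints and RNA from cells whose genotype label reads ALKBH3 knockdown, described by the series as carrying shRNA-ALKBH3, and footprints and RNA from cells whose genotype label reads WT, described as carrying a control shRNA. ALKBH3 is a demethylase of alkylated nucleic acids. All cells are described as resistant to erastin, which blocks cystine import, while the library names carry RLS3, so the selecting compound is uncertain. The line, the shRNA and the number of clones or pools are not further described, and each group had 1 library.

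Annexins bind acidic phospholipids of membranes when calcium is present, and act in membrane trafficking, in linking membranes to actin and in sealing wounded membranes. S100 proteins are small EF-hand proteins, most of which change shape on binding calcium and then hold target proteins, often the N-terminal tail of an annexin. S100A10 is an exception that no longer needs calcium and stays bound to annexin A2. Sealing of membrane damage matters to ferroptosis, the iron-dependent death that erastin sets off, because that death ends in rupture of the plasma membrane.

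The footprint libraries held 3742513 counts in knockdown-labelled cells and 3795680 in control cells, and the RNA libraries 689375 and 554075. The targeted gene, ALKBH3, had 22 footprints in the knockdown-labelled library and 14 in the control library (log2 ratio 0.59, 95% counting interval -0.37 to 1.54) and 0 RNA counts in both, so a lower level of the targeted gene was not seen. Every direction given here is between a library labelled ALKBH3 knockdown and a control library. Of epithelial markers, KRT18 had 538 and 462 footprints and KRT8 15 and 17, while KRT19 (3 and 4) and EPCAM (2 and 0) were near 0. CDH1 had no row. The mesenchymal VIM had 16521 and 23326, and the leukocyte marker PTPRC 0 and 0. In RNA the order differed: KRT8 had 511 and 208 counts, VIM 104 and 47 and KRT18 36 and 13. With 1 library a group there is no replicate error: intervals cover counting error only, no p-value is given, and reads amplified by PCR are not independent molecules.

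ANXA2 and S100A11 were the members furthest above 0, and ANXA1 the furthest below. Their promoter windows are shown because these 3 genes bound the spread of the family. The windows run from 250 bases before to 50 after the RefSeq start, in GRCh38.p14, as chr15:60397937-60398236 on the minus strand for ANXA2, chr1:152036955-152037254 on the minus strand for S100A11 and chr9:73151615-73151914 on the plus strand for ANXA1. Capitals mark matches, on either strand, to a TATA box (TATAAA), an AP-1 site (TGANTCA) or a GC box (GGGCGG).
ANXA2: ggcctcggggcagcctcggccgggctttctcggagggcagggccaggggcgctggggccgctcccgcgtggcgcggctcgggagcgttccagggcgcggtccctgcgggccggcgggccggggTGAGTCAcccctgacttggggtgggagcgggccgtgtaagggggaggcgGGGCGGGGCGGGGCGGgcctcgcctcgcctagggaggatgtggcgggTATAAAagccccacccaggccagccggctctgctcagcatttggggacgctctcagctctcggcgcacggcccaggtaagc
S100A11: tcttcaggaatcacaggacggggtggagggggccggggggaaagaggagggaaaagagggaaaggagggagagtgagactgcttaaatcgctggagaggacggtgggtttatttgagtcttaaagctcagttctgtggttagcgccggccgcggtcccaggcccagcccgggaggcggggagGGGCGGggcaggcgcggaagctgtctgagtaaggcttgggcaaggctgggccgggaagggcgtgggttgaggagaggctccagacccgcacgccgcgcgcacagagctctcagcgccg
ANXA1: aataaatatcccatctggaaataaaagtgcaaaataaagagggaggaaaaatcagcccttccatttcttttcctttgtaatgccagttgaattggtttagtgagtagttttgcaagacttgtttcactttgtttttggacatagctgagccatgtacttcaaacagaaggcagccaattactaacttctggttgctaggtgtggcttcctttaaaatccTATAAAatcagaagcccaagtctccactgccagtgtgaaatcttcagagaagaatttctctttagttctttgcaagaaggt

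TATAAA lay 31 bases before the start in both ANXA2 and ANXA1, and was absent from the S100A11 window. ANXA2 also held an AP-1 match beginning 127 bases before the start and 3 GC boxes that overlap one another, S100A11 1 GC box and ANXA1 none. Bases G and C made up 76.0% of the ANXA2 window, 65.3% of the S100A11 window and 37.7% of the ANXA1 window, against a median of 58.7% over 35116 windows. RefSeq gave 14 windows for the 10 members, some with several starts, and TATAAA was in 3 of them, TGANTCA in 1 and GGGCGG in 10. Over all windows these shares were 11.5%, 7.71% and 44.95%. TGATGNAA, the C/EBP-ATF composite, and GAANNTTC, a pair of heat shock sites, occurred in 0 of the 14, and in 3.62% and 6.77% of all windows. Footprints do not measure promoters, and these matches describe letters only.

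The first question was how much of each protein the cells were translating. Together the 10 genes took 25910 footprints in the knockdown-labelled library, 0.692% of it (exact binomial 95% interval 0.684 to 0.701), and 28309 in the control library, 0.746% (0.737 to 0.755). The 7 annexins took 0.338% and 0.390%, and the 3 S100 genes 0.354% and 0.356%. In bulk libraries fewer cells of a kind and less RNA per cell cannot be told apart. In CPM, counts scaled to library totals after TMM adjustment for composition, the annexins summed to 3301 in the knockdown-labelled library and 3993 in the control library, and the S100 genes to 3463 and 3640. The larger part of the gap lay in the annexins on both scales, but not in all of them. ANXA1 alone had a CPM of 1012 in the knockdown-labelled library and 1459 in the control library. ANXA5 and ANXA6 were also lower, ANXA7 was near equal, and ANXA2, ANXA4 and ANXA11 were higher. In the S100 sum the higher count of S100A11 stood against the lower counts of S100A6 and S100A10.

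Levels between genes are given as the authors' deposited footprint RPKM (reads normalised to gene length and to sequencing depth), each with an exact Poisson interval. S100A6, a calcium sensor linked to proliferation, was highest, at 5554 RPKM (5432 to 5678) in knockdown-labelled cells and 6129 (6004 to 6256) in control cells. It ranked 28th and 27th of all genes by footprint count. ANXA5, the phosphatidylserine binder used to stain dying cells, followed at 2584 (2506 to 2664) and 2841 (2761 to 2922). S100A10 stood at 1615 (1553 to 1679) and 1621 (1560 to 1684), and S100A11 at 1655 (1595 to 1717) and 928 (884 to 974). The last 2 could not be ordered within counting error in the knockdown-labelled library, whereas S100A10 was higher than S100A11 in the control library.

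ANXA1, the glucocorticoid-induced annexin with anti-inflammatory activity, was at 591 RPKM (573 to 610) in knockdown-labelled cells and 784 (764 to 806) in control cells. ANXA6, which has a doubled annexin core, was at 268 (257 to 279) and 291 (281 to 303). ANXA2, at 197 (176 to 219) and 108 (93.1 to 125), and ANXA4, at 133 (123 to 144) and 111 (102 to 120), came next. ANXA4 and ANXA2 were within counting error of each other in the control library, and ANXA2 was the higher in the knockdown-labelled one. ANXA7, at 75.1 (69.3 to 81.3) and 69.6 (64.1 to 75.4), and ANXA11, at 67.6 (62.5 to 73.2) and 51.8 (47.4 to 56.5), were lowest, and were within counting error of each other in the knockdown-labelled library.

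**Figure D1:**
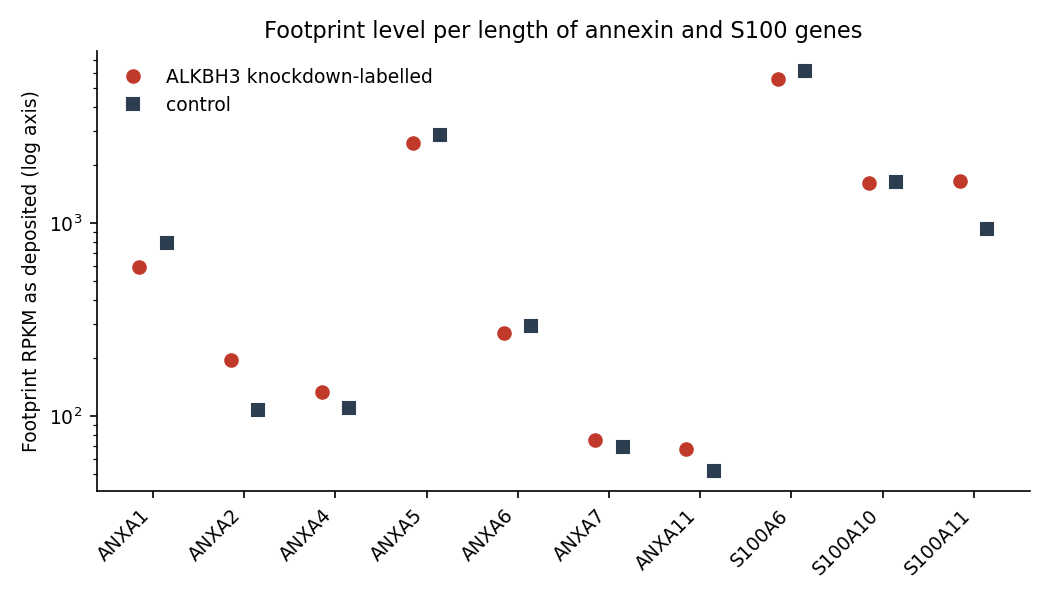
Deposited footprint RPKM (log axis) of the 10 genes in the ALKBH3 knockdown-labelled library (circles) and the control library (squares), 1 library each. S100A6 lies highest, at 5554 and 6129, and ANXA11 lowest, at 67.6 and 51.8; S100A11 and ANXA2 have their circle well above their square.

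This order depends on the gene lengths behind the RPKM, which are not stated, as is the library size used. Taking the column totals as library sizes, the control values imply a length of 2567 bases for ANXA11, 2471 for ANXA6, 2257 for ANXA7, 1817 for ANXA1 and 1371 for ANXA4, but 451 for ANXA2 and 445 for ANXA5. Those for S100A11, S100A10 and S100A6 were 477, 433 and 394. ANXA2 and ANXA5, whose proteins are of about the size of ANXA1 and ANXA4, were thus scaled by lengths like those of the much smaller S100 proteins, and their RPKM may stand too high beside the other annexins. Ratios between the libraries are not touched by this, since the footprint lengths are the same in both.

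The second question was which of the genes carried more or fewer footprints in knockdown-labelled cells. All 10 passed the filter of 100 footprints over both libraries. The family did not move as one: of 10 members, 3 had an interval above 0, 5 an interval below 0 and 2 an interval holding 0. The median log2 ratio was -0.07, and 0.05 on the deposited RPKM, where the median of all genes also moved up, to 0.10. Across the 7050 genes with at least 100 footprints the median was -0.02, with intervals above 0 for 18.2% and below 0 for 22.3%. Members were counted deeply, which narrows intervals: 9 of them had at least 1000 footprints, of which 2 lay above and 5 below, and among the 1614 genes of that depth the shares were 24.1% and 42.6%. The split of the members is near that of all deeply counted genes. None was 2-fold apart, as were 1.3% of all genes.

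ANXA2, a plasminogen and actin-binding annexin at the cell surface and on endosomes, had 320 footprints in the knockdown-labelled library and 185 in the control library. The gene, ENSG00000182718, spans 60639531 to 60690184 on the minus strand of chromosome 15 (hg19). The log2 ratio was 0.74 (0.48 to 1.003), a ratio of 1.67 (1.40 to 2.004). Of all genes tested, 2.48% had a ratio at least as high.

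S100A11, which binds the N-terminal tail of annexin A1, had 2849 footprints in the knockdown-labelled library and 1680 in the control library. The gene, ENSG00000163191, spans 152004982 to 152009511 on the minus strand of chromosome 1. Its log2 ratio was 0.72 (0.63 to 0.80), a ratio of 1.64 (1.55 to 1.74), and 2.79% of genes lay at least as high. The order of ANXA2 and S100A11 could not be told within counting error (difference 0.03, -0.25 to 0.30). They were the 2 members at least 1.5-fold higher, against 4.89% of all genes, and 0 members were at least 1.5-fold lower, against 4.62%.

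These are also the members with processed copies in RefSeq by name, 3 for ANXA2 and 10 for S100A11, against 0 for each of the other 8. None of these copies has a row in the table used, and the sources used here do not state how reads matching several places were counted, so both counts are uncertain. Across protein-coding genes, 3.79% of 1239 with at least 1 copy so named were at least 1.5-fold higher, against 5.13% of 5805 without. The part of such copies in the values of ANXA2 and S100A11 was not tested.

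ANXA11, an annexin that ties RNA granules to lysosomes, had 627 footprints in the knockdown-labelled library and 505 in the control library (log2 ratio 0.27, 0.10 to 0.43). It spans 81910645 to 81965328 on the minus strand of chromosome 10. ANXA4, an annexin abundant in epithelia (chromosome 2, 69969106 to 70053596, plus strand), had 660 and 577 footprints, at 0.15 (-0.01 to 0.31). ANXA7, whose partner is the calcium-binding sorcin (chromosome 10, 75135203 to 75173825, minus strand), had 612 and 596, at -0.01 (-0.17 to 0.15). ANXA7 gives no direction, and that of ANXA4 depends on scaling: its interval lay above 0 with totals without TMM (0.21, 0.05 to 0.38), with median-of-ratios size factors (0.17, 0.0049 to 0.33) and with the deposited RPKM (0.27, 0.10 to 0.43).

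ANXA1 had 3878 footprints in the knockdown-labelled library and 5410 in the control library, the lowest ratio of the family. The gene, ENSG00000135046, spans 75772570 to 75785309 on the plus strand of chromosome 9. Its log2 ratio was -0.53 (-0.59 to -0.47), a ratio of 0.694 (0.666 to 0.723), and 6.17% of genes lay at least as low. Its interval did not meet that of any other member.

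S100A6 had 7894 footprints in the knockdown-labelled library and 9159 in the control library (log2 ratio -0.26, -0.30 to -0.22; chromosome 1, 153507075 to 153508720, minus strand). ANXA5 had 4156 and 4803 (-0.26, -0.32 to -0.20; chromosome 4, 122589110 to 122618268, minus strand). ANXA6, which binds membranes and actin and is linked to cholesterol transport, had 2392 and 2733 (-0.24, -0.32 to -0.16; chromosome 5, 150480666 to 150537443, minus strand). These 3 lay within 0.02 of one another on the log2 scale, closer than their counting error, and between 22.1% and 24.1% of all genes lay at least as low. S100A10 had 2522 and 2661 (-0.12, -0.20 to -0.05; chromosome 1, 151955391 to 151966866, minus strand), and its interval held 0 with totals without TMM (-0.06, -0.14 to 0.02) and with RPKM (-0.01, -0.08 to 0.07).

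Ranked by log2 ratio, the members ran ANXA2, S100A11, ANXA11, ANXA4, ANXA7, S100A10, ANXA6, ANXA5, S100A6 and ANXA1. Of neighbours in that order, 3 differed beyond counting error. S100A11 lay above ANXA11 by 0.45 (0.26 to 0.64), S100A10 above ANXA6 by 0.11 (0.003 to 0.23) and S100A6 above ANXA1 by 0.27 (0.19 to 0.34). The other neighbours could not be ordered. The annexins thus stood at both ends of the family, and so did not share 1 direction.

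**Figure D2:**
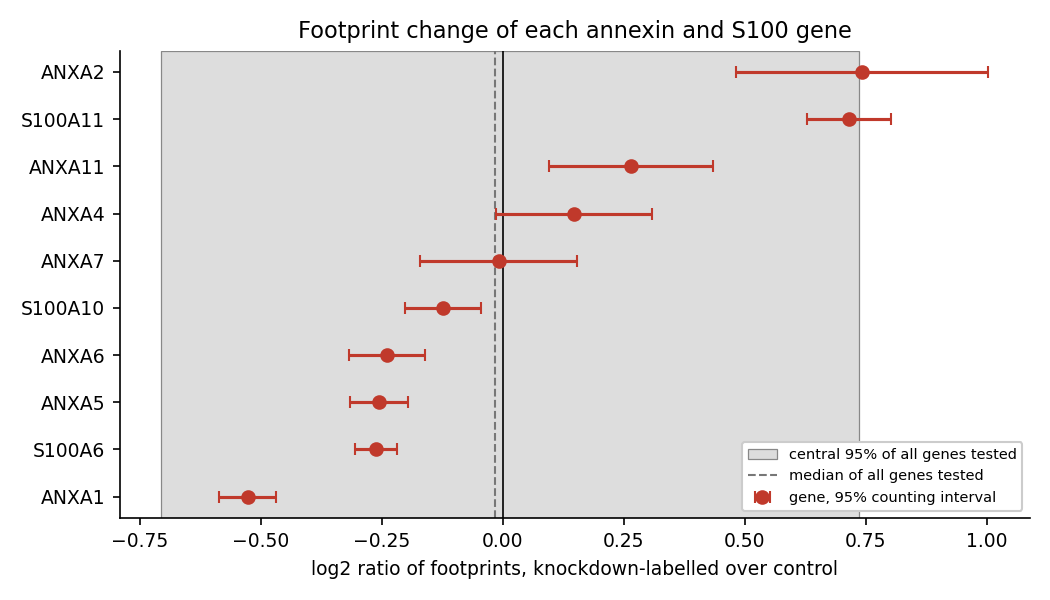
log2 ratio of footprints, knockdown-labelled over control, of the 10 genes (points) with 95% counting intervals (bars), the central 95% of the 7050 genes tested (grey band) and their median (dashed line). ANXA2 and S100A11 lie at 0.74 and 0.72, at the upper edge of the band, and ANXA1 at -0.53, inside it.

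**Figure D3:**
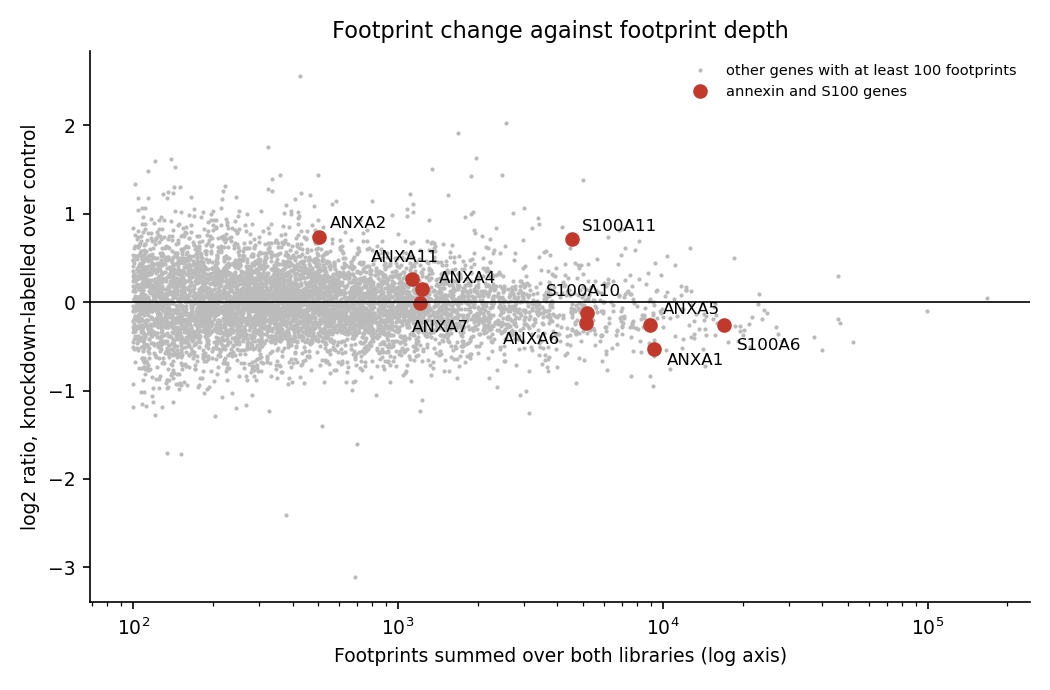
Each gene with at least 100 footprints (grey) by its summed footprints (log axis) and its log2 ratio, knockdown-labelled over control, with the 10 genes in red. S100A11, at 0.72, lies higher than all but 1.98% of the genes with at least 1000 footprints, while ANXA2, at 0.74, has fewer footprints than any other member.

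The third question was whether annexins changed with the proteins they are known to bind. Of 9 pairs chosen, 8 could be measured, since PDCD6 has no row, and each difference is the annexin's log2 ratio minus its partner's, in which library scaling cancels. The pairs share members and are not independent. In 4 of 8 the interval left out 0. No share over other gene pairs was computed, so the 4 of 8 is not read as particular to binding partners. Among the 1614 genes with at least 1000 footprints, intervals lay above 0 for 24.1% and below 0 for 42.6%. Those are shares of single genes, and give no base rate for differences between genes.

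The annexin A2 and S100A10 pair, which forms a tetramer at membranes, changed unequally: the difference was 0.87 (0.59 to 1.14). ANXA2 RPKM was 0.122 of that of S100A10 in knockdown-labelled cells and 0.0667 in control cells. These fractions carry the length and copy limits of ANXA2, and the deposited values say nothing of protein. The largest difference was between ANXA1 and S100A11, at -1.24 (-1.35 to -1.14). ANXA1 RPKM was 0.357 of that of S100A11 in knockdown-labelled cells and 0.845 in control cells.

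ANXA2 and S100A11 differed by 0.03 (-0.25 to 0.30). Against S100A6, the differences were 1.003 (0.74 to 1.27) for ANXA2, 0.53 (0.35 to 0.70) for ANXA11, 0.01 (-0.07 to 0.08) for ANXA5 and 0.02 (-0.07 to 0.11) for ANXA6. The last 2 bound any difference to 0.11 on the log2 scale, counting error alone. SRI, which encodes sorcin, had 438 footprints in knockdown-labelled cells and 387 in control cells, and ANXA7 differed from it by -0.14 (-0.40 to 0.12).

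**Figure D4:**
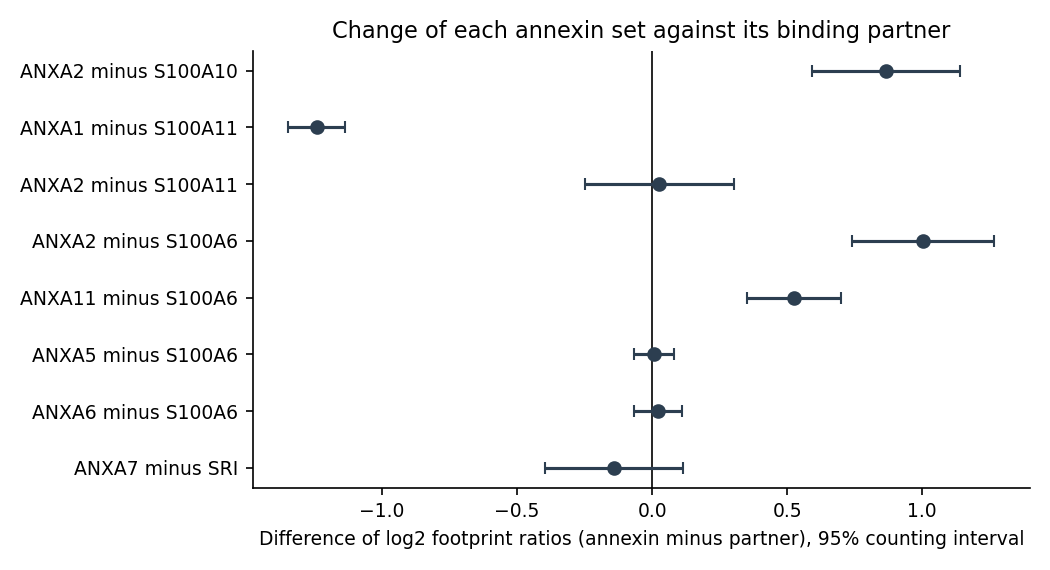
Difference of log2 footprint ratios, annexin minus partner, with 95% counting intervals, for 8 pairs. ANXA1 minus S100A11 lies at -1.24 and ANXA2 minus S100A10 at 0.87, while ANXA5 and ANXA6 lie at 0.01 and 0.02 against S100A6.

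The 3 S100 members lie on the minus strand of 1 stretch of chromosome 1, which from 151955391 to 153606568 (hg19) holds 11 listed S100A genes. Its 11 genes took 14081 footprints in knockdown-labelled cells and 14405 in control cells, of which the 3 members held 94.2% and 93.7%. S100A13, which takes part in the release of leaderless growth factors, had 523 and 566 footprints (log2 ratio -0.16, -0.33 to 0.01), and S100A16 239 and 268 (-0.21, -0.46 to 0.04). S100A3 (32 and 35), S100A2 (11 and 19) and S100A4 (10 and 15), the metastasis-associated S100 protein, were under the filter of 100 footprints, and S100A5 (0 and 1), S100A9 (0 and 1) and S100A1 (1 and 0) were at most 1. Of the S100A genes past the filter, S100A11, at 0.72, was the one whose ratio lay above 0. S100A13 had 55 RNA counts in knockdown-labelled cells and 21 in control cells, the most of these genes, and S100A1, inside its span on the opposite strand, 17 and 4. S100P, on chromosome 4, had 1 and 0.

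**Figure D5:**
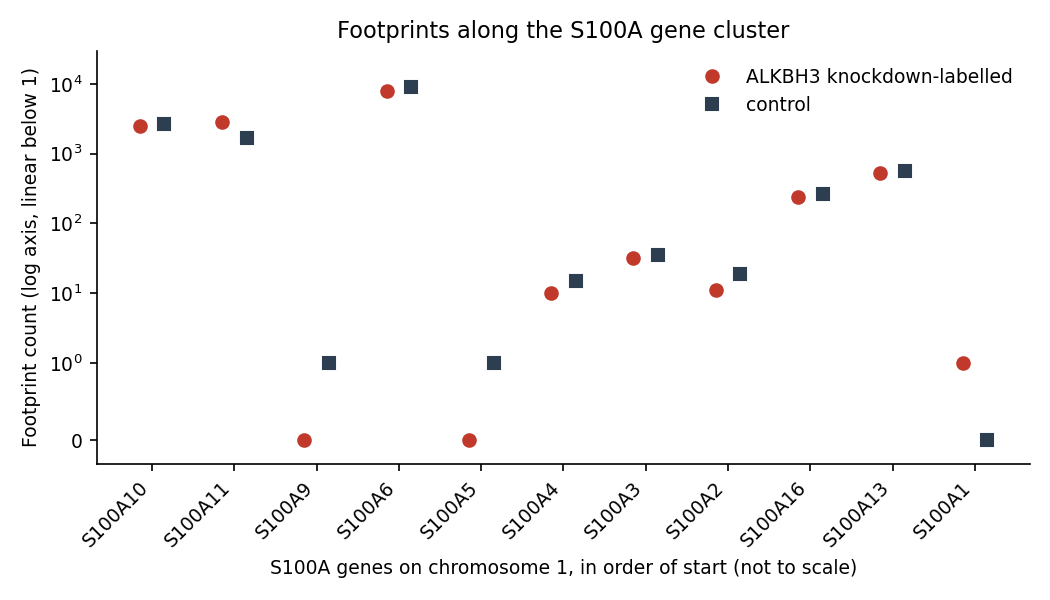
Footprint counts (log axis, linear below 1) of the 11 S100A genes of chromosome 1 in order of start, in the knockdown-labelled library (circles) and the control library (squares). S100A6, S100A10 and S100A11 lie between 1680 and 9159, and S100A11 (2849 and 1680) is the member with the circle above the square.

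Of 7 other annexins on the list, 3 had a row, and none reached 100 footprints: ANXA10, a gastric annexin, had 14 and 11, ANXA3 0 and 2 and ANXA9 1 and 0. Known binding partners had a median log2 ratio of 0.10 over 11 measured of 19, with 4 intervals above 0 (36.4%), 3 below (27.3%) and 4 holding 0. Over all genes tested the shares were 18.2% above and 22.3% below, and among genes with at least 1000 footprints 24.1% and 42.6%. AHNAK, the giant scaffold held by annexin A2 and S100A10, was at -0.83 (-0.89 to -0.77), with 3278 footprints in knockdown-labelled cells and 5648 in control cells. CACYBP, which binds S100A6, was at -0.89 (-1.31 to -0.48), EZR, a membrane-actin linker, at -0.53 (-0.64 to -0.41) and FPR1, a formyl peptide receptor that annexin A1 activates, at 0.54 (0.20 to 0.88).

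Genes of the ESCRT machinery and membrane repair had a median of -0.10 over 24 measured of 31. Of these, 3 had an interval above 0 (12.5%), 7 below (29.2%) and 14 holding 0. The shares were 18.2% and 22.3% of all genes, and 24.1% and 42.6% of those with at least 1000 footprints. On RPKM the median was 0.02. CHMP2B (-0.55, -0.80 to -0.31), CHMP4B (-0.48, -0.66 to -0.29) and CHMP5 (-0.34, -0.56 to -0.13), all ESCRT-III subunits, and EHD2, an ATPase of caveolae (-0.21, -0.32 to -0.09), had the interval bounds furthest from 0. Other EF-hand calcium proteins were at -0.09 over 22 of 28, with 7 intervals above (31.8%) and 9 below (40.9%), against 18.2% and 22.3% of all genes and 24.1% and 42.6% of those with at least 1000 footprints. Their median was 0.03 on RPKM. The interval bounds furthest from 0 were those of EFHD2 (-0.77, -0.92 to -0.63), SDF4 (-0.66, -0.78 to -0.55), CALU (-0.54, -0.63 to -0.44) and LETM1 (-0.58, -0.73 to -0.43). The plasminogen system, which annexin A2 and S100A10 bring to the cell surface, was at -0.19 over 9 of 10, with 4 above and 4 below, 44.4% each, against the same 18.2% and 22.3% of all genes and 24.1% and 42.6% of deeply counted ones. Some genes are on more than 1 list, so the lists are not independent, and nothing particular to a list is read from these few genes. SERPINB2 was at -0.86 (-0.98 to -0.73), PLAUR, the urokinase receptor, at -0.44 (-0.57 to -0.30) and ENO1 at -0.19 (-0.21 to -0.16), while SERPINE2 was at 0.51 (0.41 to 0.61). No measured gene of these lists was 2-fold apart. The median of the binding partners lay above the -0.02 of all genes, and the other medians below it.

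The RNA comparison could not be made gene by gene: 0 of 10 members reached 100 RNA counts over both libraries, and neither did 94.6% of the 7044 protein-coding genes that had 100 footprints or more. ANXA2 had the most, with 28 counts in knockdown-labelled cells and 12 in control cells (log2 ratio 0.75, -0.21 to 1.71). S100A6 had 12 and 7 (0.30, -1.01 to 1.61) and ANXA1 6 and 4 (0.09, -1.64 to 1.83). ANXA5 had 7 and 3, ANXA6 6 and 2, S100A11 4 and 0, ANXA11 3 and 0, S100A10 2 and 0 and ANXA4 1 and 1. ANXA7 had 0 and 0, which allows up to 3 counts in each library. A ratio is given for the members with more than 3 counts in each library, ANXA2, S100A6 and ANXA1, and each of their intervals held 0.

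Summed, the 10 members had 69 RNA counts in the knockdown-labelled library and 29 in the control library, a ratio of 2.38 (log2 after scaling 0.80, 0.18 to 1.42), with more counts in knockdown-labelled cells for 8 of 10. The RNA totals themselves differed by 1.24. In 1614 protein-coding genes with at least 1000 footprints, summed RNA counts differed by 1.65 before scaling. Of these genes, 70.2% had more in the knockdown-labelled library. For the 1182 of them not overlapped by a listed gene of the other strand, the values were 1.84 and 68.4%. S100A6 and ANXA7 fall outside that smaller set. A scaled log2 ratio with an interval was computed for the members alone. Whether their RNA rose more than that of deeply counted genes was therefore not tested. There were 376 footprints per RNA count of the members in knockdown-labelled cells and 976 in control cells, against 82.1 and 156 in those 1182 genes. Features of antisense biotype lie opposite members. RP11-537A6.9, inside ANXA7 (chromosome 10, 75141191 to 75143254, plus strand), had 129 and 60 RNA counts, and BX470102.3, which overlaps 517 bases of the S100A6 span (chromosome 1, 153506079 to 153507591, plus strand), had 11 and 27, both with 0 footprints. The sources used here do not state whether the counting used strand, so RNA of ANXA7 or S100A6 and of these features cannot be told apart. Rows without a listed gene on the opposite strand held 153660 of 689375 RNA counts in knockdown-labelled cells and 111628 of 554075 in control cells. For footprints they held 2703409 of 3742513 and 2746339 of 3795680. How much of the members' RNA counts is their own mRNA was not tested.

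Footprints over RNA, the translational efficiency named by the files, inherits these counts. For ANXA2 the change was -0.01 (-1.003 to 0.99), for S100A6 -0.56 (-1.87 to 0.75) and for ANXA1 -0.62 (-2.35 to 1.12), all under the read filter and none distinct from 0 in counting error. The ratio in the authors' deposited table was 1173 in knockdown-labelled and 1249 in control cells for ANXA2, for ANXA5 19204 and 45180 and for S100A6 8799 and 12497. That table lists 1 member at 0 in knockdown-labelled cells and 4 in control cells, the members without RNA counts there. The deposited ratio in knockdown-labelled cells exceeds the ratio of footprint share to RNA share by 42.0 times for S100A11, 105 for S100A10 and 557 for ANXA2. With column totals as library sizes, these factors equal the length implied by the RNA RPKM over that implied by the footprint RPKM. The RNA lengths so implied were 19312 bases for S100A11, 43821 for S100A10 and 242463 for ANXA2. How the RNA RPKM were scaled is not stated, and the reason for such lengths was not tested. Deposited ratios are therefore not compared between genes here.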

How the data were processed

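Ribosome footprints and RNA of SNU-668 cells were analysed from 1 table of 16692 genes, with 1 library in each of 4 groups taken from the genotype labels and titles. The deposited read counts are whole numbers per gene, per the file headers. The authors also deposited RPKM values, and a ratio of footprint RPKM to RNA RPKM per gene. Per the submitters' processing notes, FastQC, cutadapt, Bowtie, STAR and hg19 were used. The counter, its use of strand and of multi-mapping reads, and the gene lengths were not given in the sources used here.

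From the counts, log2 ratios of knockdown-labelled over control libraries were computed after adding 0.5 to each count. Library totals were multiplied by TMM factors (edgeR 4.0.16, R 4.3.3): 1.02 and 0.977 for footprints, 1.04 and 0.958 for RNA. Each 95% interval rests on the counting error of the counts compared. Genes needed 100 reads over the libraries of an assay. No residual degree of freedom was available, so no model was fitted and no p-value is given. The calculation was tested on simulated counts with counting error only.

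The members, the 6 gene lists and the binding pairs were chosen with earlier results of these data known. The text names all members, ALKBH3, relatives with any footprint, the pair partners, processed copies, opposite-strand features and up to 4 genes of each list, by the interval bound nearest 0. Alternatives were plain totals, size factors (DESeq2 1.42.0), RPKM plus 0.1, filters of 20 and 1 reads, 3 gene sets, a prior count of 5 and a 1.5-fold minimum. Promoter windows and names of copies come from RefSeq (GRCh38.p14), matched by symbol for 10 of 10 members. PDCD6 and the other list entries without a row, 22 in all, were looked up by gene ID, gave 0 matches and were not analysed here.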

Additional observations from a re-analysis of the deposited data

How the results depend on the processing

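No paired analysis was possible because each group had 1 library, and leaving out a library was not possible for the same reason. The median log2 ratio of the members was -0.07, and 0.053 with the deposited RPKM, which also moved the median of all genes up by 0.12; set against all genes, the members lay at -0.05 under both. Without genes overlapped on the opposite strand, S100A6 and ANXA7 left the set. The 8 members that stayed had a median of 0.01, or 0.02 above all genes. Each of the 8 kept the sign of its ratio, so this shift of the median came from the members left out. Members above 0 numbered 3 or 4 and members below 0 numbered 4 or 5 over all settings run. ANXA2 stayed between 0.73 and 0.86, S100A11 between 0.71 and 0.83 and ANXA1 between -0.53 and -0.41. The intervals of S100A10 and ANXA4 held or left out 0 depending on the scaling, and ANXA7 ran from -0.01 to 0.11. With a 1.5-fold minimum, 2 members were apart in place of 0, by construction. In RNA and in footprints over RNA, 0 members passed 100 reads, 1 passed 20 and 9 passed 1, so the other settings gave no value there. The plasminogen list had a median of -0.069 with RPKM, in place of -0.19; the EF-hand and ESCRT lists turned positive there (0.03 and 0.02) but stayed below all genes (0.10). Footprint RPKM differ from the counts by a constant, 1.05 between the libraries, and so shift all genes alike. Between the settings run, the 8 pair differences kept their side of 0 and moved by less than their counting error. Statements on RNA and on footprints over RNA are limited by the members' few RNA counts, 0.0100% of the RNA total in knockdown-labelled cells and 0.00523% in control cells, against 0.692% and 0.746% of footprints; why the shares differ was not tested.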
